A study of Mus musculus with 20 samples.

Results

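The 9 genes described here, Ms4a1, Cd22, Cr2, Fcer2a, Faim3, Cd37, Bank1, Cd72 and Siglecg, are known for their expression in mature B cells. They were taken by symbol and matched to their Ensembl identifiers among the 37620 genes of the count table, and all 9 were found. RNA was measured in bulk bone marrow cells of 20 mice, 5 in each of 4 groups. Every mouse was a lethally irradiated wild-type recipient of marrow pooled from a few transgenic donors, engrafted for more than 6 weeks, that then received doxycycline chow (625 ppm) for 7 days to switch on an rtTA-dependent transgene, U2AF1(WT) or U2AF1(S34F). For the last 5 of those days the mice were infused intravenously with sudemycin D6, a compound that modulates the spliceosome, or with vehicle (hydroxypropyl-β-cyclodextrin). Each transgene was combined with each infusion, giving the 4 groups, so that rtTA, doxycycline and transplantation were common to all of them, controls included. Mice that shared a genotype may have shared a donor pool, and their tests then measure the spread between recipients.

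B cells are made in the marrow. Pro-B and pre-B cells rearrange their immunoglobulin genes, become immature B cells with a surface B cell receptor, leave for the spleen as transitional cells, and some return to the marrow as mature recirculating cells. Most of the 9 genes come on late along this path and tune the B cell receptor. Cd22, Siglecg and Cd72 encode inhibitory receptors that recruit the phosphatase SHP-1 (Ptpn6). Cr2 encodes complement receptors that enhance B cell receptor signalling, Fcer2a (CD23) the low-affinity IgE receptor, and Faim3 (also called Fcmr) an IgM receptor. Ms4a1 (CD20) and Cd37 encode membrane proteins that span the membrane several times, and Bank1 encodes an adaptor of receptor signalling.

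Each library held between 41145892 and 62138138 counts in genes, so that even the lowest member in the lowest mouse (Fcer2a, vehicle-treated U2AF1(S34F) mouse 7) had 11 counts. Mean CPM (gene counts scaled to a common library size) of U2af1 was 36.1 ± 1.39 (SD, n = 5) in vehicle-treated and 42.1 ± 3.73 in sudemycin-treated U2AF1(WT) mice, while among U2AF1(S34F) mice it was 51.1 ± 2.98 and 55.2 ± 3.26. These counts do not separate the transgene from the endogenous gene or the mutant from the wild-type allele. All 10 U2AF1(WT) mice had 39145 or more Xist counts and at most 4 counts summed over Y-linked genes, whereas all 10 U2AF1(S34F) mice had at most 8 Xist counts and at least 10270 Y-linked counts. Genotype and sex-linked expression therefore cannot be told apart in any comparison of genotypes, while both drug comparisons lie within 1 of these patterns.

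Per length of transcript the 9 genes differed widely in level. Over the 20 mice, mean RPKM (CPM divided by the merged exon length in kilobases) was highest for Cd37, at 45.7 ± 9.97 (SD), followed by Siglecg at 10 ± 1.99 and Bank1 at 7.56 ± 2.59. Ms4a1 (5.12 ± 3.53), Faim3 (4.05 ± 2.86) and Cd22 (4.03 ± 2.99) came next. Fcer2a (1.73 ± 1.31), Cd72 (1.70 ± 0.784) and Cr2 (1.27 ± 0.931) were at the lower end. The SD here is the spread between mice, most of which these genes share, so it does not measure how far 1 gene lies from another. Differences between genes were not tested. With the longest transcript as length, Cd72 (2.25) stood above Fcer2a (1.76). The leading genes, Cd37 and Siglecg, were also the steadiest, with a highest mouse 1.94 and 1.87 times the lowest, whereas the same ratio was 18.3 for Ms4a1, 18.9 for Cd22, 22.5 for Faim3, 23.0 for Cr2 and 45.5 for Fcer2a.

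**Figure D1:**
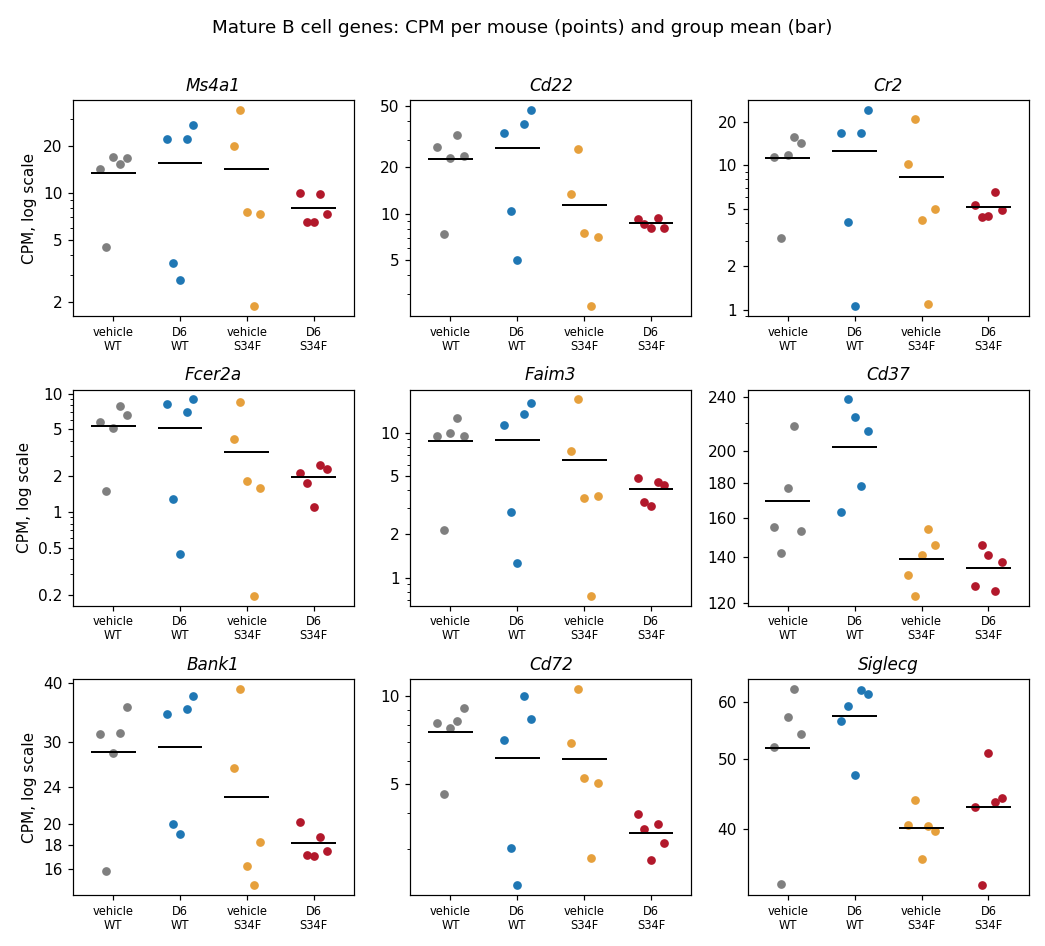
CPM (log axis, its range set for each gene) of the 9 genes in each mouse, with 1 point per mouse, 5 mice per group and a bar at the group mean. For Ms4a1, Cd22, Cr2, Fcer2a and Faim3 some mice of 3 groups lie far below the rest of their group and the sudemycin-treated U2AF1(S34F) mice lie close together, whereas Cd37 and Siglecg vary little within groups.

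Mice of the same group differed widely, as the values of Ms4a1, the target of therapeutic CD20 antibodies, show. In U2AF1(WT) mice Ms4a1 was at 14.4, 4.53, 17.0, 15.5 and 16.8 CPM in vehicle-treated mice 1 to 5, and at 22.5, 3.54, 2.76, 22.3 and 27.4 CPM in sudemycin-treated mice 6, 8, 9, 10 and 12. Among U2AF1(S34F) mice it was at 20.2, 34.3, 7.58, 1.87 and 7.35 CPM in vehicle-treated mice 1, 3, 5, 7 and 11, and at 10.1, 6.57, 6.50, 9.88 and 7.37 CPM in sudemycin-treated mice 2, 6, 9, 10 and 12. All 4 groups overlapped. The vehicle-treated U2AF1(WT) mouse 2, sudemycin-treated U2AF1(WT) mice 8 and 9 and vehicle-treated U2AF1(S34F) mouse 7 were low, and vehicle-treated U2AF1(S34F) mouse 3 was the highest of the 20.

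Cd22, the sialic acid-binding inhibitory receptor of B cells, followed the same mice. It was at 27.1, 7.34, 23.0, 32.3 and 23.6 CPM in vehicle-treated and 33.3, 10.4, 5.02, 38.2 and 47.2 CPM in sudemycin-treated U2AF1(WT) mice, in the order above. Among U2AF1(S34F) mice it was at 13.5, 26.2, 7.55, 2.50 and 7.04 CPM under vehicle and at 9.20, 8.54, 8.14, 9.37 and 8.07 CPM under sudemycin D6. The last group was narrow, with an SD of 0.594 CPM against 9.18 CPM under vehicle. Cr2, Fcer2a and Faim3 had the same shape: within vehicle-treated U2AF1(S34F) mice they spanned 1.09 to 21.1, 0.196 to 8.49 and 0.750 to 16.9 CPM, and within sudemycin-treated U2AF1(S34F) mice 4.4 to 6.49, 1.11 to 2.50 and 3.14 to 4.88 CPM. A difference in spread between those groups was not tested.

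The first comparison asked whether sudemycin D6 changed these genes in mice with the wild-type transgene. None of the 9 genes passed the test, edgeR's quasi-likelihood test with Benjamini-Hochberg adjustment over all genes (false discovery rate, FDR, under 10%), in a comparison in which 453 of 14763 genes (3.07%) passed. No member had an unadjusted p under 0.05 either, and DESeq2 called none. The median log2 fold change of the 9 genes was 0.14, beside 0.00 over all genes tested, and the 9 values ran from −0.30 for Cd72 to 0.26 for Cd37. The lowest FDR was that of Cd37 (log2 fold change 0.26, SE 0.138, FDR = 0.443). Ms4a1 changed by 0.20 with an SE of 0.651, so that the standard error was larger than the change itself.

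Under sudemycin D6, 8 of the 9 fold changes in U2AF1(S34F) mice were negative, with a median of −0.69 beside −0.01 over all genes, and 1 gene, Cd72, passed the test. Here 1588 of 14714 genes (10.8%) passed, so that 1 of 9 is close to the share of all genes. Cd72 encodes an inhibitory receptor for Sema4d. It was at 6.90, 10.6, 5.25, 2.79 and 5.05 CPM in U2AF1(S34F) mice 1, 3, 5, 7 and 11 given vehicle and at 3.96, 3.53, 2.76, 3.65 and 3.15 CPM in sudemycin-treated mice 2, 6, 9, 10 and 12. All sudemycin-treated mice lay below 4 of the 5 vehicle-treated mice, and vehicle-treated mouse 7 lay among them. Cd72 fell by 0.85 on the log2 scale (SE 0.282, FDR = 0.0985, edgeR). The call was at the edge: it was lost when any 1 of 9 of the 10 mice was left out (FDR from 0.105 to 0.183) and kept without vehicle-treated mouse 7 alone, and without vehicle-treated mouse 3 the fall was 0.555. Cd72 overlaps the gene Tesk1 on the other strand, and whether the counting used strand is not given in the sources used here, so that reads of both cannot be told apart.

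The other members did not pass in U2AF1(S34F) mice. Ms4a1 had a log2 fold change of −0.84 (SE 0.610, FDR = 0.454), Fcer2a of −0.75 (SE 0.676), Cr2 of −0.72 (SE 0.584), Faim3 of −0.69 (SE 0.601), Cd22 of −0.41 (SE 0.476) and Bank1 of −0.35 (SE 0.240). Cd37 (−0.05, SE 0.0715) and Siglecg (0.08, SE 0.0914) had the smallest standard errors. Values of Cd22, Fcer2a and Faim3 turned above 0 without vehicle-treated mouse 3, the mouse with most Ms4a1 (0.169, 0.00877 and 0.0648). In RNA of bulk marrow, fewer B cells and less of a transcript per B cell cannot be told apart. The authors report that sudemycin D6 at this dose and schedule caused no marked skew of mature lineages in the marrow of either genotype.

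The difference between the drug effects in the 2 genotypes was tested directly in a model of all 20 mice. None of the 9 genes passed (FDR 0.682 to 0.964), where 2 of 15392 genes (0.0130%) did, and no member had an unadjusted p under 0.05. DESeq2 called 116 genes and none of the 9. All 9 interaction terms were negative, from −1.05 (SE 0.935) for Ms4a1 to −0.08 (SE 0.183) for Siglecg, with the median at −0.67 beside −0.04 over all genes. An effect in one genotype and not in the other was thus not shown to differ for any member.

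**Figure D2:**
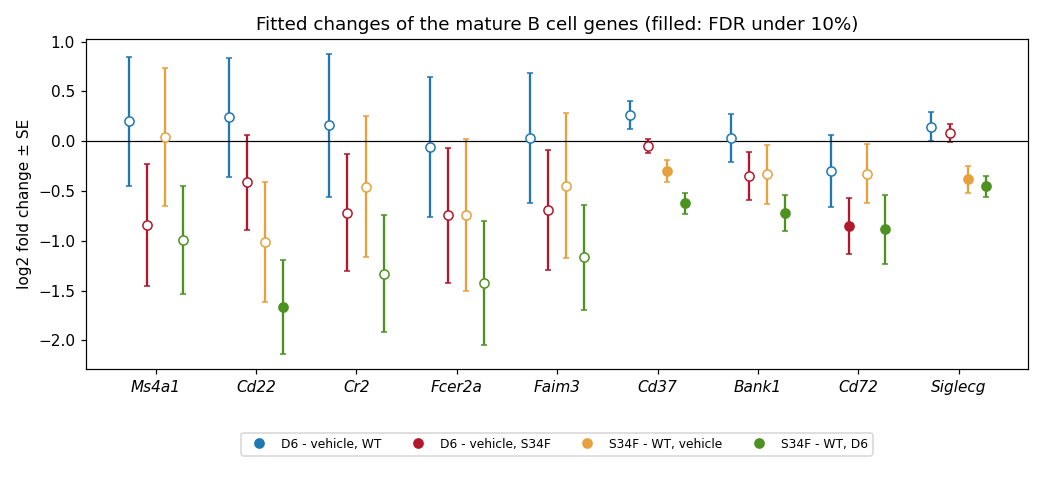
Fitted log2 fold changes of the 9 genes (points) with their standard errors (bars) in the drug comparisons and the genotype comparisons, 10 mice each, filled where FDR was under 10%. In the drug comparisons 1 point is filled, Cd72 in U2AF1(S34F) mice, and the largest standard errors belong to Ms4a1, Cr2, Fcer2a, Faim3 and Cd22.

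In the genotype comparisons the members that passed were lower in U2AF1(S34F) mice. Under vehicle 2 of 9 passed, where 5851 of 14817 genes (39.5%) did. They were Siglecg, which encodes an inhibitory receptor of the B-1 and B-2 lineages, and Cd37, a tetraspanin of lymphoid and myeloid cells. Across mice these 2 followed other B lineage genes least closely of the 9, as described below (Pearson's r within groups 0.522 for Siglecg and −0.367 for Cd37). Siglecg was at 51.9, 33.6, 57.1, 62.5 and 54.1 CPM in vehicle-treated U2AF1(WT) mice 1 to 5 and at 40.6, 43.9, 36.4, 40.4 and 39.8 CPM in the vehicle-treated U2AF1(S34F) mice. With the exception of mouse 2, every U2AF1(WT) mouse lay above every U2AF1(S34F) mouse (log2 fold change −0.38, SE 0.136, FDR = 0.047). Cd37 was at 155, 142, 177, 218 and 153 CPM in the former and 132, 123, 141, 154 and 146 CPM in the latter (log2 fold change −0.30, SE 0.114, FDR = 0.0597). Both calls were lost without vehicle-treated U2AF1(WT) mouse 3 (FDR = 0.105 and 0.122) or mouse 4 (0.135 and 0.15). The call of Cd37 was also lost without U2AF1(S34F) mouse 1 (0.12) or 3 (0.116), and without that mouse 3 Cd22, Bank1 and Cd72 passed, giving 4 calls.

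Under sudemycin D6, 5 of 9 passed, all lower in U2AF1(S34F) mice, where 5402 of 14677 genes (36.8%) passed. They were Cd22 (log2 fold change −1.67, SE 0.475, FDR = 0.0229), Cd72 (−0.89, SE 0.346, FDR = 0.075), Bank1 (−0.72, SE 0.182, FDR = 0.0119), Cd37 (−0.62, SE 0.108, FDR = 0.00175) and Siglecg (−0.45, SE 0.106, FDR = 0.00851). For Cd37 the groups did not overlap, with 163 to 238 CPM in U2AF1(WT) and 125 to 146 CPM in U2AF1(S34F) mice. The remaining 4 genes had log2 fold changes from −1.43 to −0.99 with FDR from 0.107 to 0.193. Without sudemycin-treated U2AF1(WT) mouse 8, or without mouse 9, all 9 passed. The call of Cd72 was lost without U2AF1(WT) mouse 6, 10 or 12 or any of the 5 U2AF1(S34F) mice (FDR 0.106 to 0.187). Cd37 overlaps Tead2 and Ms4a1 overlaps a non-coding gene on the opposite strand, with the same limit as for Cd72.

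The fifth comparison set sudemycin-treated U2AF1(S34F) against vehicle-treated U2AF1(WT) mice, differing in transgene and drug. Of the 9 genes, 8 passed, all lower, where 7415 of 14761 genes (50.2%) passed. Cd72 had the lowest FDR: its 5 sudemycin-treated U2AF1(S34F) mice (2.76 to 3.96 CPM) did not overlap with the 5 vehicle-treated U2AF1(WT) mice, at 8.07, 4.65, 7.77, 8.22 and 9.12 CPM (log2 fold change −1.16, SE 0.173, FDR = 0.000266). Fcer2a (−1.46, SE 0.359) and Cd22 (−1.40, SE 0.308) had the most negative values, and Siglecg did not pass (−0.29, SE 0.152, FDR = 0.147). Siglecg passed without vehicle-treated U2AF1(WT) mouse 2 (FDR = 0.00361) or without sudemycin-treated U2AF1(S34F) mouse 9 (0.0967), and Ms4a1 (−0.77, FDR = 0.0657) was lost without any 1 of 7 mice (0.108 to 0.132). The 5 comparisons share groups, so that their values are not independent of each other.

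Across mice 7 of the members followed the rest of the B lineage closely, Siglecg did so loosely and Cd37 did not. A B lineage score was taken per mouse as the mean log2 CPM of 12 genes that B cells express from early stages on, among them Cd79a, Cd79b, Pax5 and Ebf1. It ran from 1.27 in vehicle-treated U2AF1(S34F) mouse 7 to 4.2 in sudemycin-treated U2AF1(WT) mouse 10. As a description over deviations from the group means of the 20 mice, Pearson's r with this score was 0.991 for Cd22 and Faim3, 0.986 for Ms4a1, 0.984 for Cr2, 0.979 for Fcer2a and Cd72 and 0.926 for Bank1. It was 0.522 for Siglecg and −0.367 for Cd37. The 20 points share their libraries with the score.

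The slope told the 7 genes apart. For each unit of the score on the log2 scale, Fcer2a changed by 1.66 log2 units, Cr2 by 1.51, Faim3 by 1.45, Ms4a1 by 1.4 and Cd22 by 1.19, while Cd72 changed by 0.713 and Bank1 by 0.477. Siglecg (0.137) and Cd37 (−0.0798) were nearly flat. The pairs most alike among members were Cd22 with Faim3 (within-group r of 0.991), Cd22 with Cr2 (0.988) and Cr2 or Fcer2a with Faim3 (0.986 each).

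**Figure D3:**
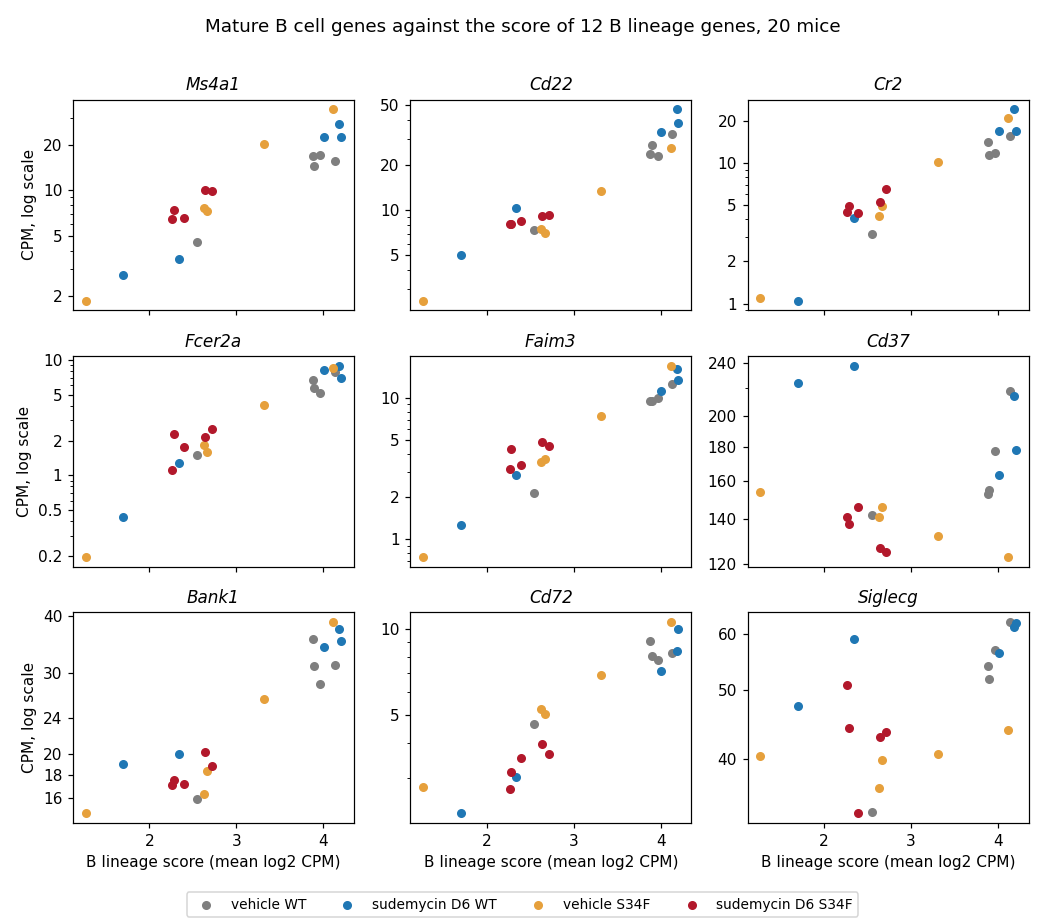
CPM of the 9 genes (log axis, its range set for each gene) against the B lineage score, the mean log2 CPM of 12 B lineage genes, with 1 point per mouse coloured by group. Ms4a1, Cd22, Cr2, Fcer2a, Faim3, Bank1 and Cd72 rise along the score, Siglecg rises less steeply and with more scatter, and Cd37 does not follow it.

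Among 12217 genes that are no members and had a mean of at least 1 CPM, those whose log2 CPM correlated most with the mean standardised level of the 9 genes over the 20 mice included Cd79a (Pearson's r = 0.982), Scd1 (0.978), H2-Eb2 (0.977), Cacna1i (0.976), Tnfrsf13c (0.975), Ikzf3 (0.973) and Pax5 (0.967). Cd79a encodes a signalling chain of the B cell receptor, Tnfrsf13c the receptor of the survival factor BAFF, Pax5 and Ikzf3 transcription factors of B cells, and Scd1 a fatty acid desaturase.

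With the B lineage score added to the model as a covariate, an alternative chosen after seeing the data, the members separated in direction. In U2AF1(S34F) mice 5 of 9 passed for the drug, where 18.8% of all genes did: Cd22 (log2 difference 0.39, SE 0.0932, FDR = 0.0201), Faim3 (0.45, SE 0.127, FDR = 0.0385), Cr2 (0.38, SE 0.108, FDR = 0.0395) and Fcer2a (0.59, SE 0.205, FDR = 0.0838) were higher under sudemycin D6 at a given score, and Cd72 was lower (−0.49, SE 0.0992, FDR = 0.00986). In U2AF1(WT) mice 1 of 9 passed, Cd22 (0.44, SE 0.105, FDR = 0.0393), where 4.76% of genes did. Between genotypes 3 of 9 passed under vehicle (32.3% of all genes), all higher in U2AF1(S34F) mice, and 8 of 9 under sudemycin D6 (49.3%), of which Ms4a1, Cr2, Fcer2a and Faim3 were higher and Cd22, Cd37, Bank1 and Siglecg lower. In the fifth comparison 3 of 9 passed (5.30%), Ms4a1 (0.90), Cr2 (0.75) and Faim3 (0.98), all higher in sudemycin-treated U2AF1(S34F) mice. There score and group nearly coincided. The score was 2.3 to 2.7 in those mice and 3.9 to 4.1 in the vehicle-treated U2AF1(WT) mice other than mouse 2 (2.55). The values of this fit thus rest largely on that mouse and on the assumed straight line. Between genotypes under sudemycin D6 the U2AF1(WT) scores were 4.0 to 4.2 other than in mice 8 (2.34) and 9 (1.70). That fit likewise rests largely on mice 8 and 9 and on the straight line. Of the 12 score genes 10 were themselves called lower in U2AF1(S34F) mice there, so a higher value at a given score is relative to them. These fits take the score as a straight-line term, and the score was measured in the same libraries.

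Ms4a1 and Cd22, both close to the score, stood apart from each other by genotype, a pattern noticed after their values were seen and not tested. The ratio of Ms4a1 to Cd22 counts was 0.531, 0.617, 0.737, 0.480 and 0.711 in vehicle-treated U2AF1(WT) mice 1 to 5 and 0.674, 0.342, 0.550, 0.583 and 0.581 in the sudemycin-treated ones. In U2AF1(S34F) mice it was 1.5, 1.31, 1, 0.750 and 1.04 under vehicle and 1.10, 0.770, 0.798, 1.06 and 0.913 under sudemycin D6. Every U2AF1(S34F) mouse lay above every U2AF1(WT) mouse, also those with few B lineage transcripts, while the vehicle and sudemycin groups of each genotype overlapped. The gap was narrow, from 0.737 in vehicle-treated U2AF1(WT) mouse 3 to 0.750 in vehicle-treated U2AF1(S34F) mouse 7. The latter rests on 105 and 140 counts, so that counting noise could close the gap.

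The other stages of the B lineage were read from lists of genes. Pro-B and pre-B cell genes fell under sudemycin D6 in both genotypes, 5 of 10 tested in each, beside 3.07% and 10.8% of all genes called. Their medians were −1.53 in U2AF1(WT) and −1.31 in U2AF1(S34F) mice on the log2 scale. In U2AF1(WT) mice Sox4 (−0.92, FDR = 0.00803), Dntt (−1.64, FDR = 0.0203), the surrogate light chain gene Vpreb1 (−2.23, FDR = 0.06) and Arpp21 (−1.77, FDR = 0.0841) had the lowest FDR. Those in U2AF1(S34F) mice were Sox4 (−0.89, FDR = 0.0372), the recombinase gene Rag1 (−2.98, FDR = 0.0514), Dntt (−1.61, FDR = 0.0686) and Igll1 (−2.10, FDR = 0.0822). Dntt, which adds nucleotides at the joins of immunoglobulin genes, went from 8.77 to 2.79 CPM and from 11.6 to 3.84 CPM. Whether this list differed from the 9 mature B cell genes was not tested.

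None of the 12 B lineage identity genes was called in either drug comparison, with medians of −0.18 and −0.65. The most abundant, Bcl11a and Cd79b, had log2 fold changes of −0.35 and −0.04 in U2AF1(WT) mice and of −0.17 and −0.68 in U2AF1(S34F) mice. Between genotypes 1 of the 12 was lower in U2AF1(S34F) mice under vehicle and 10 under sudemycin D6 (medians −0.78 and −1.14), and in the fifth comparison all 12 were lower (−1.42), as were all 10 pro-B and pre-B genes tested (−1.72). Over all genes 39.5%, 36.8% and 50.2% passed in these comparisons, in either direction. Those called lower numbered 2930 of 14817, 2884 of 14677 and 3709 of 14761. Of 17 other genes of mature B cells none was called in U2AF1(WT) mice (Ighm 0.03, Hvcn1 0.23). In U2AF1(S34F) mice Pou2f2 rose (0.92, FDR = 0.0292), and Fcrl1 (−0.51, FDR = 0.0374), the IgM heavy chain gene Ighm (−0.83, FDR = 0.0572) and Stap1 (−0.30, FDR = 0.0757) fell. Of 8 plasma cell genes none was called in U2AF1(WT) mice (Igj −0.25, Xbp1 −0.07), and in U2AF1(S34F) mice Slamf7 (−0.50, FDR = 0.0723) and Igj (−0.77, FDR = 0.0734), the joining chain of secreted antibodies, fell.

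**Figure D4:**
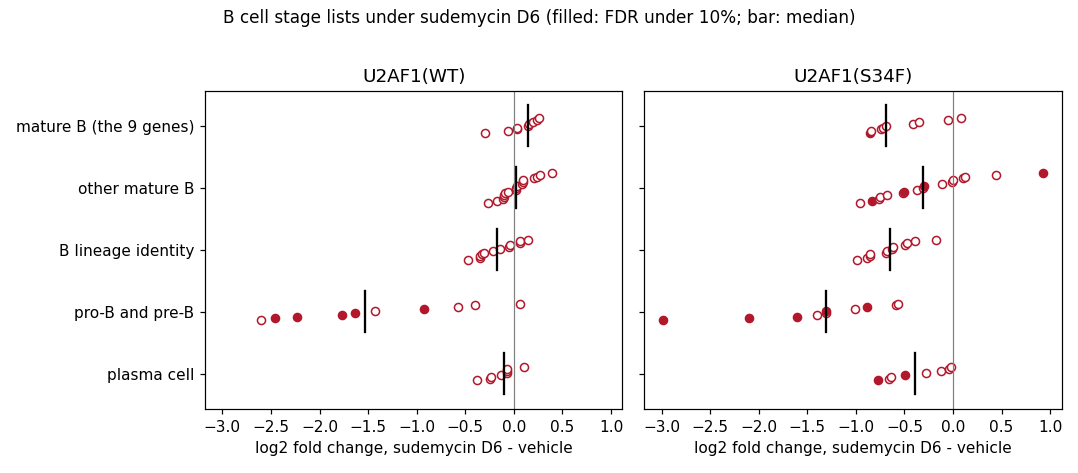
Log2 fold changes under sudemycin D6 of the genes of 5 B cell lists, with 1 point per gene, filled where FDR was under 10%, and a bar at the list's median, for U2AF1(WT) and U2AF1(S34F) mice. The pro-B and pre-B list has medians of −1.53 and −1.31, against 0.144 and −0.691 for the 9 mature B cell genes.

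Few partners of the members were called for the drug, where 3.07% of all genes passed in U2AF1(WT) and 10.8% in U2AF1(S34F) mice. Of 14 signalling partners none was called in U2AF1(WT) mice (Syk −0.13, Ptpn6 0.17), and in U2AF1(S34F) mice the lipid kinase subunit Pik3cd rose (0.22, FDR = 0.0734). Among 6 ligands or enzymes that make them, Cmah rose in both genotypes (0.60, FDR = 0.0576, and 0.59, FDR = 0.0704), from 147 to 223 CPM and from 184 to 279 CPM. Cmah makes the N-glycolylneuraminic acid that mouse Cd22 binds best. None of 10 further transcription factors of B cells was called in either (Notch2 −0.17 and −0.02, Ikzf1 0.09 and 0.11). Between genotypes, 7 of the 14 partners were lower in U2AF1(S34F) mice under vehicle, and 7 were lower and 1 higher under sudemycin D6. Over all genes 39.5% and 36.8% passed there in either direction, and 2930 of 14817 and 2884 of 14677 genes were lower. Of the 10 transcription factors 7 and 6 were lower, beside the same counts over all genes. Whether either list differed from all genes was not tested.

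Lists of other marrow cells were read beside these. In U2AF1(WT) mice 1 of 7 dendritic cell genes fell (Flt3, −0.66, FDR = 0.0203), and none of 9 erythroid (Hbb-b1 0.68, Hba-a1 0.69), 5 megakaryocyte (Itga2b −0.44, Ppbp −0.29), 6 monocyte (F13a1 −0.57, Ccr2 −0.50), 11 neutrophil (S100a9 0.09, S100a8 0.20), 12 T and NK cell (Nkg7 0.29, Ncr1 0.00) or 4 stromal genes (Cxcl12 −0.45, Lepr −0.10) was called. In U2AF1(S34F) mice, where 10.8% of all genes passed against 3.07% in U2AF1(WT) mice, more lists had called members, all lower. These were Itgax (−0.80), Flt3 (−0.52) and Siglech (−1.35) of 6 dendritic, Cd3d (−0.70), Lck (−0.70) and Cd3g (−0.83) of 12 T and NK cell, Itga2b (−0.67) and Pf4 (−0.93) of 5 megakaryocyte and Epor (−1.26) of 9 erythroid genes. None of the monocyte (F13a1 0.31, Ccr2 0.53), neutrophil (S100a9 −0.07, S100a8 −0.06) or stromal genes (Cxcl12 −0.36, Lepr −0.16) was. Summed neutrophil CPM ran from 68400 to 75500 in vehicle-treated U2AF1(WT) and from 87400 to 147000 in vehicle-treated U2AF1(S34F) mice, with 63100 to 108000 and 78600 to 128000 under sudemycin D6. S100a8 and S100a9 weigh most in these sums: under vehicle their means went from 10900 to 26300 and from 22300 to 38900 CPM between genotypes. Elane (−0.07), Lcn2 (−0.01) and Ngp (0.06) were not called there. Of the 11 neutrophil genes 5 were higher under vehicle and 6 were not called. Over all genes 39.5% were called there in either direction, and 2921 of 14817 were higher. The part of these cells in the genotype differences of the members was not tested.

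Splicing within the members was read from junctions, as the share of a junction among all reads leaving its 5′ or entering its 3′ splice site. Both treatments of the study act on the spliceosome: sudemycins bind SF3B1 at the branch point, and U2AF1 recognises the AG at the 3′ end of the intron, where the S34F change alters which base is preferred before the AG. Only 3 to 4 members per comparison had sites with at least 20 reads in every mouse, chiefly Cd37, Bank1 and Siglecg. Under the drug no share passed limma's test at FDR under 10%, of 43 tested in U2AF1(WT) mice (255 of 63166 over all genes, 0.404%) and of 42 in U2AF1(S34F) mice (282 of 66708, 0.423%). At an unadjusted p under 0.05 these were 1 and 4.

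Of 50 tested between genotypes under vehicle, 3 passed (1611 of 64236 over all genes, 2.51%), and all 3 described 1 event, the skipping of Bank1 exon 2. None passed under sudemycin D6 (0 of 40, beside 1.96%) or in the fifth comparison (0 of 43, beside 5.78%), where 5 in each had an unadjusted p under 0.05. Bank1 lies on the minus strand of chromosome 3 (chr3:135716327-135989030, mm9). Exon 2 (chr3:135946823-135947221) is a coding exon of 399 bases, a multiple of 3, so that the frame is kept without it, and a further annotated transcript joins exon 1 to exon 3. Reads that join exon 1 to exon 2 (3089 in all mice), exon 2 to exon 3 (2919) and exon 1 to exon 3 (499) were found. The sites these junctions use are shown with the 3 bases ending each intron, or the first 2 bases of each intron, in capitals. The former are read by U2AF1, and the latter lie within the longer stretch that pairs with U1 snRNA.
Bank1 exon 1 5′ site, chr3:135988826-135988836: cagGTgggtgg
Bank1 exon 2 3′ site, chr3:135947219-135947241: ttccccctctatttttcCAGgaa
Bank1 exon 2 5′ site, chr3:135946815-135946825: aagGTaggaat
Bank1 exon 3 3′ site, chr3:135917986-135918008: ttcatgcaatttttctcCAGgtc
Both 3′ sites, of exon 2 and of exon 3, have C before the AG.

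Skipping of exon 2, as a share of all reads entering exon 3, was 27.4%, 12.5%, 19.8%, 25.2% and 15.3% in vehicle-treated U2AF1(WT) mice 1 to 5, from 116 to 255 reads each. It was 3.68%, 3.25%, 4.09%, 9.47% and 3.45% in U2AF1(S34F) mice 1, 3, 5, 7 and 11 given vehicle. The groups did not overlap. The mean fell from 20% ± 6.33 to 4.79% ± 2.63 (SD, n = 5 each), a difference in log2 odds of −2.32 (limma, FDR = 0.0424), which is also that of the junction into exon 3 from exon 2, with the opposite sign. Among reads leaving exon 1, skipping went from 17.1% to 5.49% (log2 odds −1.81, FDR = 0.0981). The call was lost without U2AF1(S34F) mouse 3 (FDR = 0.11) or mouse 11 (FDR = 0.114), and in 1 model of all 20 mice (FDR = 0.102), in which 2 member junction shares still passed.

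Under sudemycin D6 skipping was 20.9%, 24.7%, 2.4%, 27.5% and 55.4% in U2AF1(WT) mice 6, 8, 9, 10 and 12 and 8.72%, 7.75%, 12%, 20.5% and 5.08% in U2AF1(S34F) mice 2, 6, 9, 10 and 12. These groups overlapped, mice 9 and 12 of the former being the lowest and highest of all 20. The 3 lowest p among member junctions for the drug in U2AF1(S34F) mice belonged to this event, and none passed: reads from exon 2 into exon 3 went from 95.2% to 89% of its acceptor's reads (FDR = 0.409), and skipping from 5.49% to 12.2% of the reads leaving exon 1 (FDR = 0.414) and from 4.79% to 10.8% of those entering exon 3. The last difference was 1.2 in log2 odds (FDR = 0.449) and in U2AF1(WT) mice 0.08 (FDR = 0.987). Whether the genotype effect differed between treatments was not tested.

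**Figure D5:**
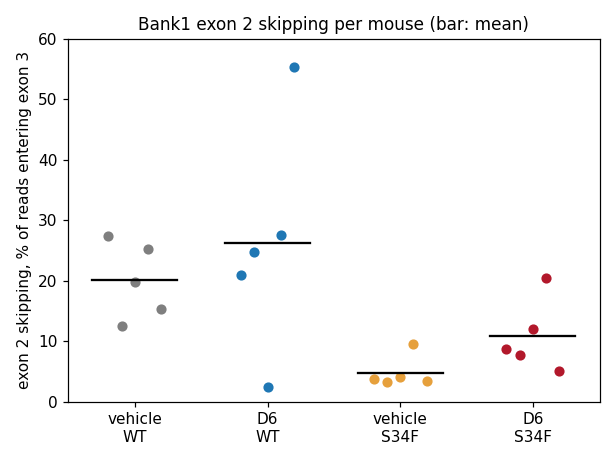
Skipping of Bank1 exon 2, in percent of the reads entering exon 3, with 1 point per mouse, 5 mice per group and a bar at the mean. The vehicle-treated U2AF1(S34F) mice lie between 3.25% and 9.47%, below all 5 vehicle-treated U2AF1(WT) mice (12.5% to 27.4%).

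The lowest p among member junctions under the drug in U2AF1(WT) mice belonged to an unannotated junction of Cd37 (chr7:52493942-52494064, the flanking exon bases). It made up 5.03% of the reads entering its 3′ site under vehicle and 2.79% under sudemycin D6 (FDR = 0.223), and its 3′ site has T before the AG. Next came a pair of Bank1 junctions that share the 3′ site at 135720389, of which the annotated one rose from 93.8% to 99.6% and the other fell from 6.25% to 0.355% (FDR = 0.566 for both, so neither passed).
Cd37 3′ site, chr7:52493940-52493962: catttcttctcttccccTAGgta
Bank1 3′ site, chr3:135720387-135720409: tgttttgttttgtcttgTAGata

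Promoters of the members were looked up in RefSeq (GRCm38.p6). Entries were found for 8 of the 9 genes. In the 150 bases before each start, on both strands, the octamer ATTTGCAT (0.998% of 32851 promoters) and the kappaB motif GGGANTTCC (0.95%) matched in none. The PU.1 core GAGGAA (14.5% of promoters) matched in Faim3, Cd72 and Cd37, the EBF1 motif CCCNNGGG (7.72%) in Cd22 and Bank1, and the E2A motif CAGGTG (10.6%) in Cr2, Bank1 and 1 of 3 starts of Fcer2a. Siglecg held no match. The windows of Cd22 and Faim3, which followed the score most closely, and of Cd37, which did not follow it, are shown with the matches in capitals.
Cd22, chr7:30879029-30879178, minus strand: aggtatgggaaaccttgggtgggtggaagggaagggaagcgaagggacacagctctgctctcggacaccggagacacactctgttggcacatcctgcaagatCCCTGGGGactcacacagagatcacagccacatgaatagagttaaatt
Faim3, chr1:130865627-130865776, plus strand: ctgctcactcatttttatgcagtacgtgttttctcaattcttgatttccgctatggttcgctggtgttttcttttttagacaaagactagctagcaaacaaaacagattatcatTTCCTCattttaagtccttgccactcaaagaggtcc
Cd37, chr7:45238840-45238989, minus strand: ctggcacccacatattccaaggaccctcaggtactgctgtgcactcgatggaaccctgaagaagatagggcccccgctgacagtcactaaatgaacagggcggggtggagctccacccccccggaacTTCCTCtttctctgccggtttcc
The PU.1 core started 36 bases before the start of Faim3 and 23 bases before that of Cd37, and the EBF1 motif 48 bases before that of Cd22.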

How the data were processed

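Ribosome-depleted total RNA of bone marrow from 20 mice was sequenced as stranded libraries. The authors aligned reads to mm9 with TopHat2 2.0.8 (named in the submitters' processing notes) and deposited raw counts per Ensembl gene and per splice junction. The counting program is not given in the sources used here. Groups came from the sample labels. The 9 genes and all lists were chosen with earlier results of these data known, and are not independent support.

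Gene counts were fitted with edgeR 4.0.16 (R 4.3.3): filterByExpr, TMM, robust quasi-likelihood, prior count 2, Benjamini-Hochberg over all genes tested, FDR under 10%, each comparison on its own 10 mice and the interaction on 20. All 9 genes passed the filter in every comparison. CPM used TMM sizes. Of 143 listed genes 142 were matched (not Ighd). Junction shares were tested with limma 3.58.1 on the log2 odds of (reads + 0.5)/(site reads + 1), for sites with at least 20 reads in every mouse and mean shares of 2% to 98%. Splice sites were read from NCBIM37 (mm9), with GENCODE annotation, and promoters from RefSeq (GRCm38.p6). Alternatives were DESeq2 1.42.0, its size factors, other filters, thresholds and samples, the replicate number as a block, other site minimums and an arcsine scale. The tests were checked on simulated data.

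Named were the 9 genes, in each list and drug comparison up to 4 called genes of lowest FDR (else the 2 most abundant), the 8 most alike genes (1 of them is not reported here), and called junctions or the 3 of lowest p. No 2 libraries of a group agreed within sampling noise.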

Additional observations from a re-analysis of the deposited data

Results flagged for a closer look

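In each group of 5 mice, the CPM of every member, the skipping of Bank1 exon 2 and the ratio of Ms4a1 to Cd22 were searched for a mouse whose gap to its neighbour took up more than 0.71 of the group's range. Of 44 such groups of values 2 held one, where chance gives about 1 in 20. Ms4a1 was at 4.53 CPM in vehicle-treated U2AF1(WT) mouse 2, with the next mouse at 14.4 CPM, and this mouse also had the lowest B lineage score of its group (2.55). Bank1 exon 2 was skipped in 9.47% of reads in vehicle-treated U2AF1(S34F) mouse 7, with the next mouse at 4.09%, and this mouse had the lowest B lineage score of all 20 (1.27). The mice of lowest score in the other groups differed. Skipping was the least of its group in vehicle-treated U2AF1(WT) mouse 2 (12.5%) and sudemycin-treated U2AF1(WT) mouse 9 (score 1.70, 2.4%). In sudemycin-treated U2AF1(S34F) mouse 9 (score 2.27) it was 12%, neither the least nor the most of its group. The part of B cell content in the 2 flagged values was not tested.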

How the results depend on the processing

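Counts of called members stayed within 1.5 times the reported count in 37 of 50 alternative fits. In U2AF1(S34F) mice no member was called for the drug without a filter on low counts (0), in 1 model of all 20 mice (0), at FDR under 5% (0) or with an absolute log2 fold change over 1 (0). Between genotypes under vehicle 1 was called at FDR under 5% and 0 with a log2 fold change over 1. Under sudemycin D6 the latter limit left 1, and in the fifth comparison 5, as did 1 model of all 20 mice (5). With the B lineage score, chosen after seeing the data, calls numbered 1 and 5 for the drug in U2AF1(WT) and U2AF1(S34F) mice, 8 between genotypes under sudemycin D6 and 3 in the fifth comparison. Called member junctions numbered 1 for the drug in U2AF1(WT) mice in 1 model of all 20 mice, and under sudemycin D6 between genotypes 1 in that model and 1 with at least 50 reads per site. The cause of these changes was not tested.

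The score turned the sign of log2 fold changes: for the drug, to 0.063 for Fcer2a in U2AF1(WT) mice, and among U2AF1(S34F) mice to 0.254 for Ms4a1, 0.393 for Cd22, 0.381 for Cr2, 0.585 for Fcer2a and 0.452 for Faim3. Between genotypes under vehicle it turned Cr2 to 0.456, Fcer2a to 0.197, Faim3 to 0.529, Bank1 to 0.113 and Cd72 to 0.15, and under sudemycin D6 Ms4a1 to 0.659, Cr2 to 0.504, Fcer2a to 0.531 and Faim3 to 0.435. Score and group nearly coincided in the fifth comparison. There Ms4a1 turned to 0.902, Cd22 to 0.271, Cr2 to 0.749, Fcer2a to 0.453, Faim3 to 0.979, Bank1 to 0.199 and Siglecg to 0.342. In the interaction the score turned Cr2 to 0.0548, Fcer2a to 0.41 and Faim3 to 0.118.

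Leaving out 1 mouse at a time gave 0 to 0 called members for the drug in U2AF1(WT) mice, 0 to 1 in U2AF1(S34F) mice, 0 to 4 and 4 to 9 between genotypes under vehicle and sudemycin D6, 7 to 9 in the fifth comparison and 0 to 0 in the interaction. Called member junctions ran from 0 to 3 under vehicle (0 without U2AF1(S34F) mouse 3 or 11), 0 to 1 under sudemycin D6 and 0 to 2 in the fifth comparison. Log2 fold changes crossed 0 for the drug in U2AF1(WT) mice for Ms4a1 (−0.0998 to 0.468), Cd22 (−0.0658 to 0.505), Cr2 (−0.22 to 0.455), Fcer2a (−0.343 to 0.237) and Faim3 (−0.283 to 0.308), lowest without sudemycin-treated mouse 12 and highest without mouse 9, and for Bank1 (−0.121 to 0.155). In U2AF1(S34F) mice Cd22 (−0.671 to 0.169), Fcer2a (−1.05 to 0.00877) and Faim3 (−0.978 to 0.0648) did so, between genotypes under vehicle Ms4a1 (−0.572 to 0.332), and in the interaction Fcer2a (−0.964 to 0.0611), Faim3 (−0.983 to 0.0293) and Siglecg (−0.156 to 0.0487). The log2 odds of Bank1 exon 2 skipping ran from −0.484 to 0.89 for the drug in U2AF1(WT) mice.

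Over all genes, calls for the drug in U2AF1(WT) mice numbered 819 with DESeq2, 1072 in 1 model of all 20 mice, 243 at FDR under 5%, 152 with a log2 fold change over 1 and 702 with the score, and 788, 826, 223 and 2760 in U2AF1(S34F) mice under the last 4 of these. A log2 fold change over 1 left 769, 715 and 1103 in the genotype comparisons and the fifth, where the score left 783. Leaving out 1 mouse at a time, calls over all genes ran from 191 (without vehicle-treated mouse 1) to 730 (without mouse 2) for the drug in U2AF1(WT) mice, from 913 (without sudemycin-treated mouse 2) to 1736 in U2AF1(S34F) mice, and from 2 to 87 (without vehicle-treated U2AF1(S34F) mouse 5) in the interaction. In the interaction 116 were called with DESeq2, 10 without a filter, 8 with at least 1 CPM in 5 mice and 47 with the score.

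Replicate numbers are shared by 8 pairs of mice of both genotypes, of which the pair numbered 2 also differed in treatment. Deviations of same-numbered mice correlated at only −0.12 to 0.204, so the numbers were not taken to pair the mice. With the replicate number as a block, 2 members were called between genotypes under vehicle, 4 under sudemycin D6 (Cd22 −1.59, FDR = 0.129) and 0 in the interaction, and 4628, 3718 and 3 genes over all. In the genotype comparisons only mice with a shared number then inform the difference, those numbered 1, 3 and 5 under vehicle and 6, 9, 10 and 12 under sudemycin D6.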
